A study of Saccharomyces cerevisiae with 21 samples.

Results

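The stretches described here lie around 15 centromeres of budding yeast, Saccharomyces cerevisiae. A region was every position within 5 kb of a given centre, in sacCer2 coordinates, on chromosomes I, II and IV to XVI, and chromosome III was not among them. The centres were given to 0.1 kb. The 15 regions held 83942 of the 6492015 nuclear positions and strands with a value in at least 1 library. That was 1.29% of those positions, in 1.25% of the nuclear bases.

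Budding yeast has point centromeres: a single short stretch of DNA, rich in A and T between conserved protein-binding motifs, is wrapped by a specialised nucleosome and carries the kinetochore, to which a spindle microtubule attaches. DNA polymerases at times build ribonucleotides into new DNA, and RNase H2, an enzyme of 3 subunits, cuts the strand beside them so that they can be replaced. Rnh201 is its catalytic subunit and Rnh203 a structural one, and mutations of the human enzyme cause Aicardi-Goutières syndrome. Ribose-seq captures DNA ends at embedded ribonucleotides and gives the position and strand of each.

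The study measured ribonucleotides in strain BY4742, of mating type MATα, grown to stationary phase. The groups were the wild type (WT, 6 libraries), rnh203-K46W (5), rnh201-G42S (3) and rnh201-null (3), in which the catalytic subunit is deleted. Both point mutations are orthologs of changes found in the human syndrome, and per the labels they were engineered by delitto perfetto. The title of each rnh203-K46W sample names RNH203, whereas its genotype field names rnh201-K46W; the title's name is used here. DNA was cut with up to 3 sets of restriction enzymes, and the set of each library was not given in the sources used here. By the first digit of the library number in the titles, all rnh203-K46W libraries were of series 300. WT libraries were of series 100 and 200, rnh201-G42S of 200 and 300, and rnh201-null of 100 and 300. No series held both WT and rnh203-K46W. From these 2 genotypes alone, their difference cannot be told apart from one between series. The labels do not say whether the libraries of a genotype came from separate cultures, so every p-value below measures the spread between these libraries, which may be technical.

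Each value was the authors' enrichment factor, which compares a library's reads at a position with the DNA sequencing depth of its genotype there. Nuclear reads recovered from these values ranged from 749 to 38428 in WT, from 7248 to 1854765 in rnh203-K46W and from 975728 to 4115292 in rnh201-G42S. In rnh201-null, replicate 1 held 1437 reads and the others 2142300 and 1975428. The 8 libraries over 100000 reads are called deep: rnh203-K46W replicates 3 to 5, all rnh201-G42S libraries and rnh201-null replicates 2 and 3, and none of WT. By their mitochondrial profiles the libraries fell into 2 sets, with a mean Spearman rho of 0.64 over 66 pairs within a set and 0.24 over 70 pairs between sets. The larger set, A, took in replicates 1, 3 and 6 of WT, 1, 2 and 4 of rnh203-K46W, 1 and 3 of rnh201-G42S and 1 and 2 of rnh201-null, and the remaining libraries form set B. In rnh201-null, a stretch of 917 bp on chromosome XIV (chrXIV:490322-491238) held no value at any of the 478 coordinates that had one in other genotypes.

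The genes named here are the pairs on either side of each centre, in the order of genes in the R64 RefSeq annotation. Its coordinates were not used because the files are in sacCer2. A region of 10 kb can hold these and further genes, which were not listed. The centre of the region of chromosome I, chrI:146500-156500, lay between TFC3, which encodes a subunit of transcription factor TFIIIC, and NUP60, a nuclear pore protein. On chromosome II (chrII:233300-243300) the pair was ECM15 and NTH2, on IV (chrIV:444800-454800) RMD1 and NTH1, where NTH1 and NTH2 encode neutral trehalases. On chromosome V (chrV:147000-157000) it was IRC22 and the mannosyltransferase gene MNN1, on VI (chrVI:143600-153600) the pseudouridine synthase gene DEG1 and LOC1, and on VII (chrVII:492000-502000) ERG26, of sterol synthesis, and EFM5. On chromosome VIII (chrVIII:100600-110600) the ribosomal protein gene RPL14B and OSH7 flanked the centre, and on IX (chrIX:350700-360700) YIL001W and SGN1. On chromosome X (chrX:431400-441400) the pair was the proteasome gene PRE3 and the vacuolar transporter gene AVT1, and on XI (chrXI:435200-445200) MET14, of sulfate assimilation, and VPS1, a dynamin-like GTPase. On chromosome XII (chrXII:145900-155900) another dynamin-like GTPase gene, DNM1, faced YLR001C, and on XIII (chrXIII:263100-273100) the Rab gene YPT7 faced the polo kinase gene CDC5. The last pairs were DOM34 and the citrate synthase gene CIT1 on XIV (chrXIV:623800-633800), the cyclin gene PHO80 and the exosome gene RRP6 on XV (chrXV:321600-331600), and the histone acetyltransferase gene HAT1 and the citrate synthase gene CIT3 on XVI (chrXVI:551000-561000).

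The clearest pattern in these regions lay at their centres. In the deep libraries of rnh201-G42S and rnh201-null, the 251 bp within 125 bp of the centres carried 0.21 to 0.38 of the ribonucleotide reads that the rest of the same chromosomes would give, whereas the deep rnh203-K46W libraries carried 0.91 to 1.29 of them. This width was chosen after the profile had been seen, and its values are therefore given first as a description. The expected number is the mean per base outside the region on the same chromosome, times 251 bases, summed over the 15 regions, and the intervals are exact 95% Poisson intervals that cover counting error only.

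In rnh201-G42S the central reads against those expected were 96 against 307 in replicate 1, 128 against 464 in replicate 2 and 490 against 1292 in replicate 3, which are ratios of 0.31, 0.28 and 0.38. In rnh201-null they were 165 against 668 in replicate 2 and 128 against 624 in replicate 3, ratios of 0.25 and 0.21. All 5 of these libraries were thus low, and no interval among them reached the value of a deep rnh203-K46W library. Replicate 1 of rnh201-null had 0 reads where 0.46 were expected, which allows a ratio of up to 8.10, so a deficit was not detectable at its depth.

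In rnh203-K46W the deep replicates 3, 4 and 5 had 93 central reads against 76.8, 735 against 568 and 160 against 176, ratios of 1.21, 1.29 and 0.91. The shallower replicates 1 and 2 had 150 against 25.1 and 5 against 2.20, ratios of 5.97 and 2.27. A single position carried much of the excess: at position 440226 of chromosome XI, minus strand, 26 bp from the given centre between MET14 and VPS1, the 5 rnh203-K46W libraries held 121, 4, 0, 255 and 2 reads. That position also held 1, 5 and 94 reads in the 3 rnh201-G42S libraries. With that position alone left out, a choice made after seeing the data, the ratios in rnh203-K46W were 1.15, 0.45, 1.21, 0.84 and 0.90 in replicate order, and those in rnh201-G42S were 0.31, 0.27 and 0.31. Without chromosome XI the ratios in rnh203-K46W were 0.73, 0.48, 1.22, 0.84 and 0.91 in replicate order, those in rnh201-G42S were 0.29, 0.18 and 0.25, and those in rnh201-null replicates 2 and 3 were 0.24 and 0.20. The deep libraries of rnh203-K46W did not overlap the other deep libraries in any of these 3 counts.

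WT was too shallow for a value per library. Its replicates held 1, 0, 5, 0, 6 and 10 central reads where 0.32, 0.33, 2.78, 2.38, 3.33 and 12.2 were expected, and the 0 in replicates 2 and 4 allows ratios of up to 11.1 and 1.55. Summed over the 6 libraries, WT had 22 reads against 21.3, a ratio of 1.03 (0.65 to 1.56). The same sum was 714 against 2062 in rnh201-G42S, a ratio of 0.35 (0.32 to 0.37), and 293 against 1292 in rnh201-null, 0.23 (0.20 to 0.25). The WT interval thus lay above those of both rnh201 mutants, in counting error alone.

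**Figure D1:**
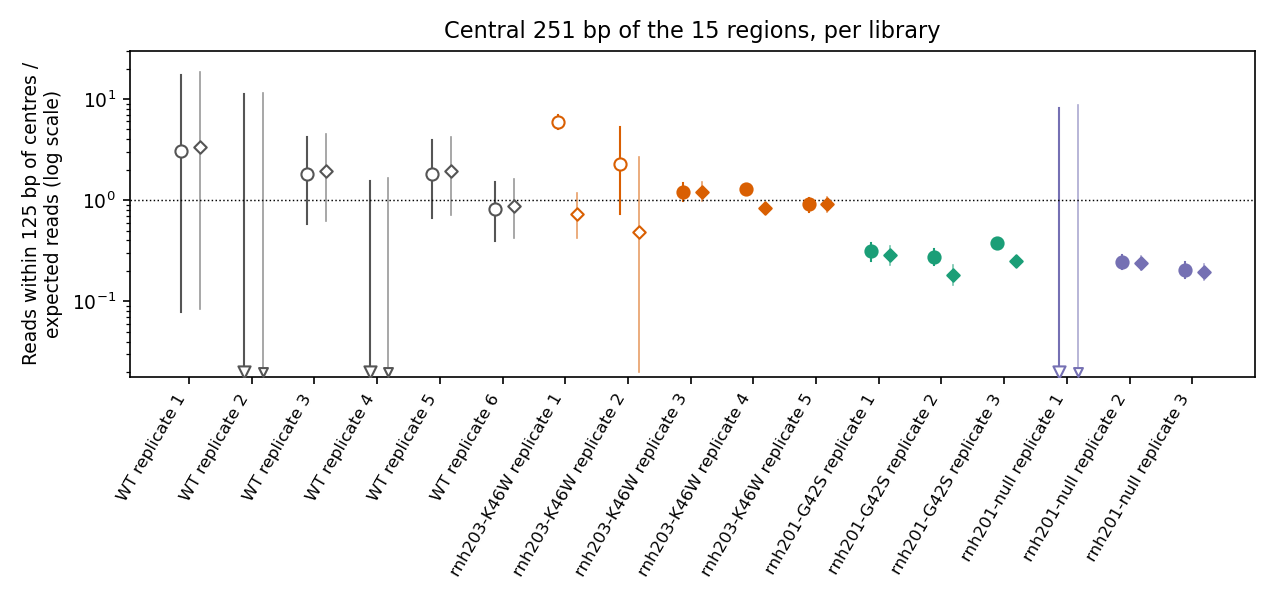
Reads within 125 bp of the 15 centres divided by the reads expected from the rest of the same chromosomes, on a log axis, per library; circles use all 15 regions, diamonds leave out chromosome XI, filled symbols are deep libraries, lines are exact 95% Poisson intervals, and triangles at the lower edge mark 0 reads. The rnh201-G42S libraries and the deep rnh201-null libraries lie between 0.18 and 0.38, and the deep rnh203-K46W libraries between 0.84 and 1.29.

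The low values were found in both sets of libraries. In set A the central ratio was 0.31 and 0.38 in rnh201-G42S and 0.25 in rnh201-null replicate 2, against 1.29 to 5.97 in rnh203-K46W. In set B it was 0.28 in rnh201-G42S and 0.21 in rnh201-null, against 0.91 and 1.21 in rnh203-K46W. DNA sequencing depth at positions with a value was not lower at the centres: in the 8 deep libraries its median there ranged from 168 to 193 reads, against 161 to 173 in the rest. Depth at central bases without a value could not be recovered, so the part of DNA coverage was not tested. When each position with a value was counted once, whatever its reads, the central ratio ranged from 0.25 to 0.43 in the deep libraries of the rnh201 mutants and from 0.86 to 1.22 in those of rnh203-K46W. The part of base composition was not tested, and the restriction set of each library was not given in the sources used here.

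The deficit was not spread evenly over the centromeres. Central 251 bp below 0.5 of the chromosome mean were found at 11, 14 and 12 of 15 centres in rnh201-G42S replicates 1 to 3, where 54.9%, 49.4% and 30.6% of the 46111 windows of that width in the rest of the chromosomes were as low. In rnh201-null replicates 2 and 3 the counts were 13 and 14, against 28.7% and 46% of windows. In rnh203-K46W replicates 3 to 5 they were 5, 4 and 5 of 15, against 29.6%, 26.9% and 33.5%, which is near the share of the rest. The share in the rest differed between libraries, so each count is to be read against that of its own library.

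At 7 of the 15 centres, those of chromosomes V, VII, IX, X, XII, XV and XVI, all 5 deep libraries of the rnh201 mutants were below 0.5, against 8.8% of the windows in the rest. The 3 deep rnh203-K46W libraries were all below 0.5 at 2 centres, those of VII and XII, against 9.39% of windows. At the centre of chromosome V, between IRC22 and MNN1, the deep rnh201-mutant libraries held 0.13, 0.29, 0.15, 0.30 and 0.33 of the chromosome mean and the deep rnh203-K46W libraries 1.48, 1.55 and 1.48. At the centre of chromosome XII, between DNM1 and YLR001C, every deep library was low: the rnh201 mutants held 0.06, 0.22, 0.15, 0.08 and 0.02 and rnh203-K46W 0.21, 0.25 and 0.32. At the centre of chromosome XI rnh201-G42S held 0.71, 1.63 and 2.16, the only centre at which all 3 of its libraries were above 0.5, while the deep rnh201-null libraries held 0.29 and 0.28. At the centre of chromosome VI rnh201-G42S replicate 1 held 1.08 and the others 0.44 and 0.50.

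The deficit was narrow in the deep libraries of set A and wider in those of set B. In rnh201-G42S the enrichment factor per base, relative to the rest of the chromosomes, was 0.26 to 0.37 within 125 bp of the centres, 0.20 to 0.66 at 125 to 250 bp, 0.48 to 0.96 at 250 to 500 bp and 0.83 to 0.90 at 500 to 1000 bp. From 1 to 2.5 kb it was 0.82 to 1.08. In the deep rnh201-null libraries the same distances gave 0.20 to 0.24, 0.37 to 0.91, 0.47 to 0.96, 0.75 to 1.08 and 0.94 to 1.23, and both libraries were above the rest at 2.5 to 5 kb, with 1.21 and 1.23. The ends of these ranges at 125 to 500 bp followed the sets. In set A (rnh201-G42S replicates 1 and 3, rnh201-null replicate 2) the values were 0.63, 0.66 and 0.91 at 125 to 250 bp and 0.96, 0.93 and 0.96 at 250 to 500 bp. In set B (rnh201-G42S replicate 2, rnh201-null replicate 3) they were 0.20 and 0.37, then 0.48 and 0.47. In the deep rnh203-K46W libraries the values were 0.87 to 1.26 within 125 bp and 0.48 to 0.78 at 125 to 250 bp, which was the lowest bin in each of the 3. Replicate 2 of rnh201-G42S also had its lowest bin there, with 0.20 against 0.26 within 125 bp. Further out, the deep rnh203-K46W libraries held 0.60 to 1.27 at 250 to 500 bp and 0.93 to 1.05 at 500 to 1000 bp. The 1.27 was replicate 4, of set A, and replicates 3 and 5, of set B, held 0.83 and 0.60.

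Within the central bins the strands differed. To the left of the centres, in the deep libraries of the rnh201 mutants, the minus strand held 0.02 to 0.23 of the per-strand mean of the rest and the plus strand 0.20 to 0.58. To the right it was the plus strand that was lowest, with 0.03 to 0.22, against 0.24 to 0.85 on the minus strand. The lower strand was the minus strand to the left in 4 of 5 libraries, the exception being rnh201-G42S replicate 2 (0.23 minus, 0.20 plus), and the plus strand to the right in 5 of 5. With chromosome XI left out, the right-hand values were 0.04 to 0.21 on the plus strand and 0.16 to 0.28 on the minus strand. In the deep rnh203-K46W libraries the 4 quadrants ranged from 0.27 to 2.52, and replicate 4 had the same order as the rnh201 mutants, with 1.95 and 0.27 on the plus and minus strands to the left and 0.33 and 2.52 to the right. Without chromosome XI those values were 2.07 and 0.29 to the left and 0.31 and 0.63 to the right. Replicate 5 had that order by small margins, with 0.92 and 0.83 on the plus and minus strands to the left and 0.85 and 0.89 to the right. Its right-hand values without chromosome XI were 0.84 and 0.82. Replicate 3 had that order only to the left, with 1.12 and 0.97, against 1.29 and 1.25 to the right. Left and right are in reference coordinates, and the orientation of each centromere was not used.

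**Figure D2:**
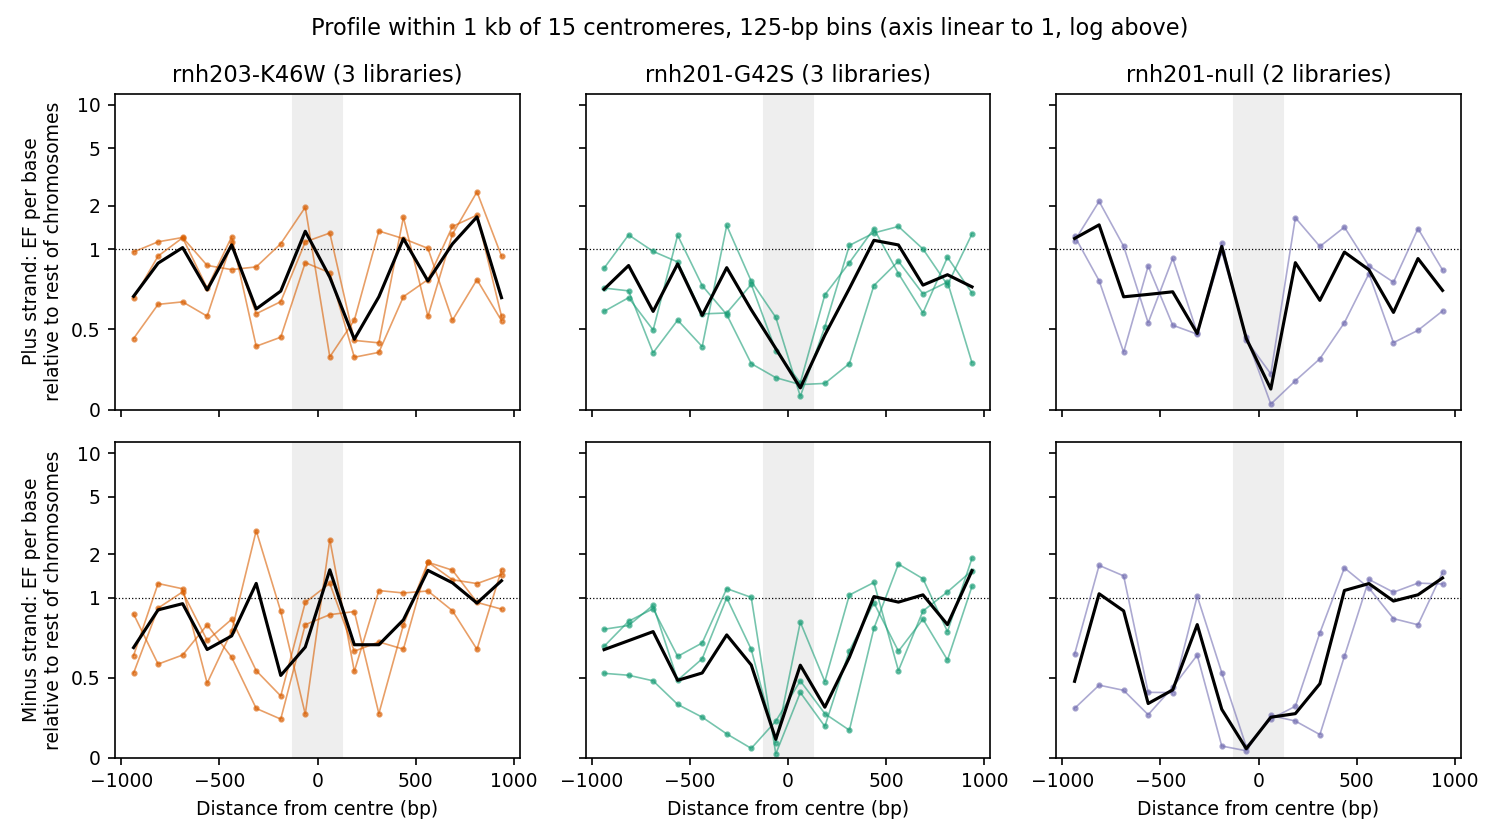
Enrichment factor (EF) per base within 1 kb of the 15 centres, pooled and divided by the per-strand mean of the rest of the same chromosomes, in 125-bp bins, for the plus strand (top) and minus strand (bottom); coloured lines are deep libraries, black lines their mean, and the shaded band is the central 251 bp. Left of the centre the minus strand, and right of it the plus strand, falls to 0.02 to 0.23 in the rnh201-G42S and rnh201-null libraries.

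The distance planned for the comparison of inner with outer DNA was 1 kb, and at that distance no difference between genotypes passed the threshold of 0.05. The log2 ratio of the DNA within 1 kb to that at 1 to 5 kb was 0.20, 0.34, 0.70, -0.16, 0.34 and -0.38 in the WT libraries. It was 0.58, -1.15, -0.17, -0.15 and -0.15 in rnh203-K46W, -0.33, -0.66 and -0.32 in rnh201-G42S, and -1.80, -0.38 and -0.87 in rnh201-null. All 6 libraries of the rnh201 mutants were thus below 0, as were the rnh203-K46W libraries other than replicate 1, and 4 of the 6 WT libraries were above it. The -1.80 of rnh201-null replicate 1 rests on 1 read within 1 kb of the centres. The mean of rnh201-null was 1.19 below that of WT on the log2 scale, with an exact permutation p of 0.0238, two-sided, and 0.429 after Benjamini-Hochberg adjustment over 18 tests (3 measures in 6 pairs of genotypes). With each library left out in turn, that difference ranged from -1.51 to -0.80. For rnh201-G42S minus WT the difference was -0.61, with an exact permutation p of 0.0714 and 0.514 adjusted.

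When the inner distance was 125 bp, chosen with the profile known, the mean log2 ratio of rnh203-K46W exceeded that of rnh201-G42S by 2.07 and that of rnh201-null by 3.06. Each had an exact permutation p of 0.0179, the smallest that 5 libraries against 3 can give, and 0.161 after adjustment over 18 tests, so neither passed. The libraries of the groups compared did not overlap, but the distance was chosen for a profile in which rnh203-K46W stood apart. At 250 bp the differences were 1.28 and 2.10 with the same p-values, and at 500 bp 0.59 and 1.69 with exact permutation p-values of 0.25 and 0.0357. The value of rnh201-null replicate 1 in these comparisons rests on 0 reads and the pseudocount of 0.1, and those of rnh203-K46W replicates 1 and 2 largely on the position on chromosome XI. For WT at 125 bp the adjusted exact permutation p was 0.367 against rnh201-null, 0.673 against rnh201-G42S and 0.555 against rnh203-K46W, but 2 of its 6 libraries had 0 central reads and the others 1 to 10, so these p-values say little about a difference.

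Over their whole 10 kb the regions showed no difference from the rest of their chromosomes that passed the threshold. The ratio of the enrichment factor per base in the regions to that in the rest of the same chromosomes was 1.66, 0.26, 1.39, 0.92, 1.12 and 0.85 in the WT libraries, which held 5 to 411 reads in the regions. It was 1.18, 1.40, 1.04, 1.14 and 0.91 in rnh203-K46W, 0.95, 0.91 and 0.99 in rnh201-G42S, and 0.93, 1.17 and 1.001 in rnh201-null. The 3 rnh201-G42S libraries were all slightly below 1, and the other genotypes lay on both sides of it. The mean log2 ratio over all 17 libraries was 0.0024 ± 0.48 (SD, n = 17), with a permutation p of 0.989 (100000 sign flips of the libraries, two-sided). The means on that scale were -0.11 ± 0.80 (SD, n = 6) in WT, 0.15 ± 0.21 (n = 5) in rnh203-K46W, -0.07 ± 0.05 (n = 3) in rnh201-G42S and 0.04 ± 0.15 (n = 3) in rnh201-null. The difference with the smallest p, rnh203-K46W minus rnh201-G42S at 0.22, had an exact permutation p of 0.143 and 0.514 adjusted.

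The balance of the strands over the pooled regions also showed no difference that passed the threshold. The share of the enrichment factor on the plus strand in the regions, minus that share in the rest, was 2.22, -9.92, 5.77, -1.11, 7.49 and 4.74 percentage points in the WT libraries. It was -10.1, -19.5, 0.99, -3.46 and 1.95 in rnh203-K46W, 2.02, -3.22 and -2.08 in rnh201-G42S, and -11.2, -1.33 and -4.05 in rnh201-null. The 8 deep libraries stayed within -4.05 and 2.02 points, and every value beyond them came from a library under 100000 reads. The mean over all libraries was -2.40 ± 6.98 points (SD, n = 17), with a sign-flip permutation p of 0.179 and 0.268 after adjustment over 3 tests. Between genotypes the smallest exact permutation p was 0.13, for rnh203-K46W minus WT at -7.54 points, and 0.514 adjusted.

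**Figure D3:**
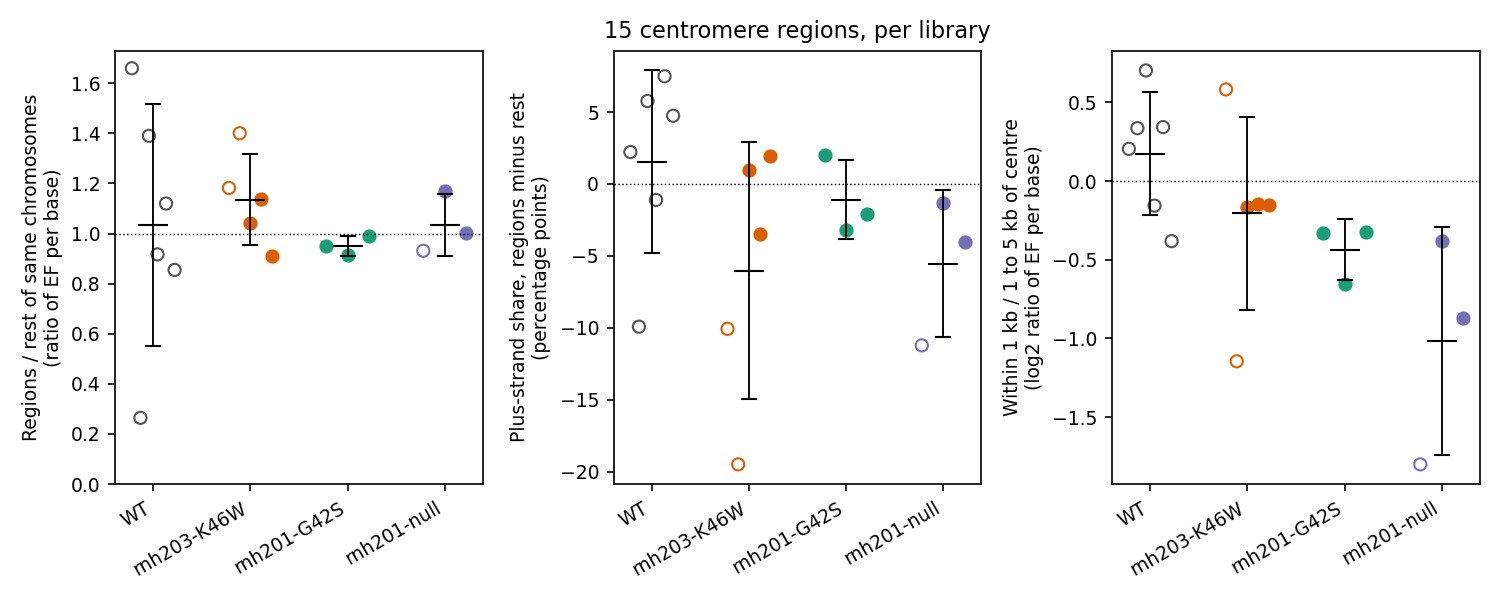
The 3 measures of the pooled regions in each library: the ratio to the rest of the chromosomes, the difference in plus-strand share and the log2 ratio of inner to outer DNA. Filled points are deep libraries, open points the others, and black bars the mean ± SD; the open points of WT spread from 0.26 to 1.66 in the first panel, and the rnh201-G42S points lie between 0.91 and 0.99.

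Single flanks had strand biases that the pooled value hides, and in 6 of the 8 deep libraries these varied less than in other windows of the same length. Each region was divided at its centre into a left and a right flank of 5 kb, giving 30 flanks. In the rnh201-G42S libraries the plus-strand share had an SD over flanks of 17.3, 16.8 and 10.4 percentage points, and in the deep rnh201-null libraries 9.62 and 13.5, where counting error alone gives 1.23 to 2.87. In the deep rnh203-K46W libraries the SD was 5.84, 9.97 and 6.21 points, against 5.02, 1.79 and 3.51 from counting error. The flanks of rnh203-K46W replicate 3 thus varied little more than its counts allow. Over 2270 windows of 5 kb in the rest of the 15 chromosomes, those with a value in all 8 deep libraries, the SD was 19.9, 17.9 and 11.7 points in rnh201-G42S, 9.08 and 15.9 in rnh201-null and 9.56, 8.82 and 9.96 in rnh203-K46W. The exceptions, in which the flanks varied more, were rnh201-null replicate 2 and rnh203-K46W replicate 4. In the latter, the right flank of chromosome VI had 13.9% on the plus strand and holds a minus-strand position with 1515 reads, described below.

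Correlations between libraries over the flanks were likewise set beside those over the other windows. Over the 30 flanks, Pearson's r between the plus-strand shares of 2 libraries was 0.55, 0.59 and 0.67 for the 3 pairs of rnh201-G42S, and 0.66, 0.66 and 0.67 for rnh201-null replicate 3 with each of them. For rnh201-null replicate 2 it was -0.04, 0.18 and 0.50 with the rnh201-G42S libraries and 0.14 with its own replicate 3. The 3 pairs of deep rnh203-K46W libraries gave -0.35 to 0.10, and the 15 pairs of one of them with a deep library of the rnh201 mutants gave -0.13 to 0.18. The -0.35 was replicate 3 with replicate 4, whose Spearman rho was -0.20. On the right flank of chromosome VI these 2 libraries had 61.7% and 13.9% on the plus strand. A single minus-strand position there held 1515 reads in replicate 4, and its part in r was not tested. Over the 2270 windows of the rest, r was 0.46 to 0.59 for the pairs of rnh201-G42S, 0.44 to 0.76 for rnh201-null replicate 3 with them, 0.22 to 0.50 for rnh201-null replicate 2 with the other deep libraries of the rnh201 mutants, 0.22 to 0.45 for the pairs of rnh203-K46W and 0.06 to 0.42 for the 15 pairs between. These are descriptions over flanks and windows, which are not independent replicates, and libraries of a genotype share 1 DNA sample as denominator. Of the 10 pairs among the rnh201 mutants, the 6 pairs from different sets had a median r of 0.60 and the 4 from the same set 0.54.

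On 6 of the 30 flanks, or 20%, all 5 deep libraries of the rnh201 mutants were on the same side of 50%, against 33.4% of the 2270 windows in the rest. The share of flanks was thus not above that of the rest, and the 6 are given as a description. The left flank of chromosome V, on the IRC22 side, had 77.0%, 75.4% and 69.2% on the plus strand in rnh201-G42S and 59.7% and 70.4% in rnh201-null, against 42.004%, 59.9% and 46.3% in rnh203-K46W. The left flank of chromosome IV, on the RMD1 side, had 72.9%, 73.4%, 64.2%, 53.2% and 63.0% in the rnh201 mutants and 48.6%, 49.3% and 50.8% in rnh203-K46W. The other 4 leaned to the minus strand. The left flank of chromosome IX, on the YIL001W side, had 24.1%, 33.7%, 37.7%, 37.8% and 31.6% on the plus strand, against 48.5%, 46.5% and 49.4% in rnh203-K46W. The left flank of chromosome XI, on the MET14 side, had 40.7%, 33.9%, 33.1%, 38.3% and 30.5% in the rnh201 mutants and 52.0%, 65.5% and 58.5% in rnh203-K46W. The remaining ones were the right flank of XII, with 32.5% to 49.5%, and the left flank of XV, with 37.8% to 46.6%. In the 3 deep rnh203-K46W libraries 8 of the 30 flanks, or 26.7%, were on one side of 50%, against 40.2% of windows.

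**Figure D4:**
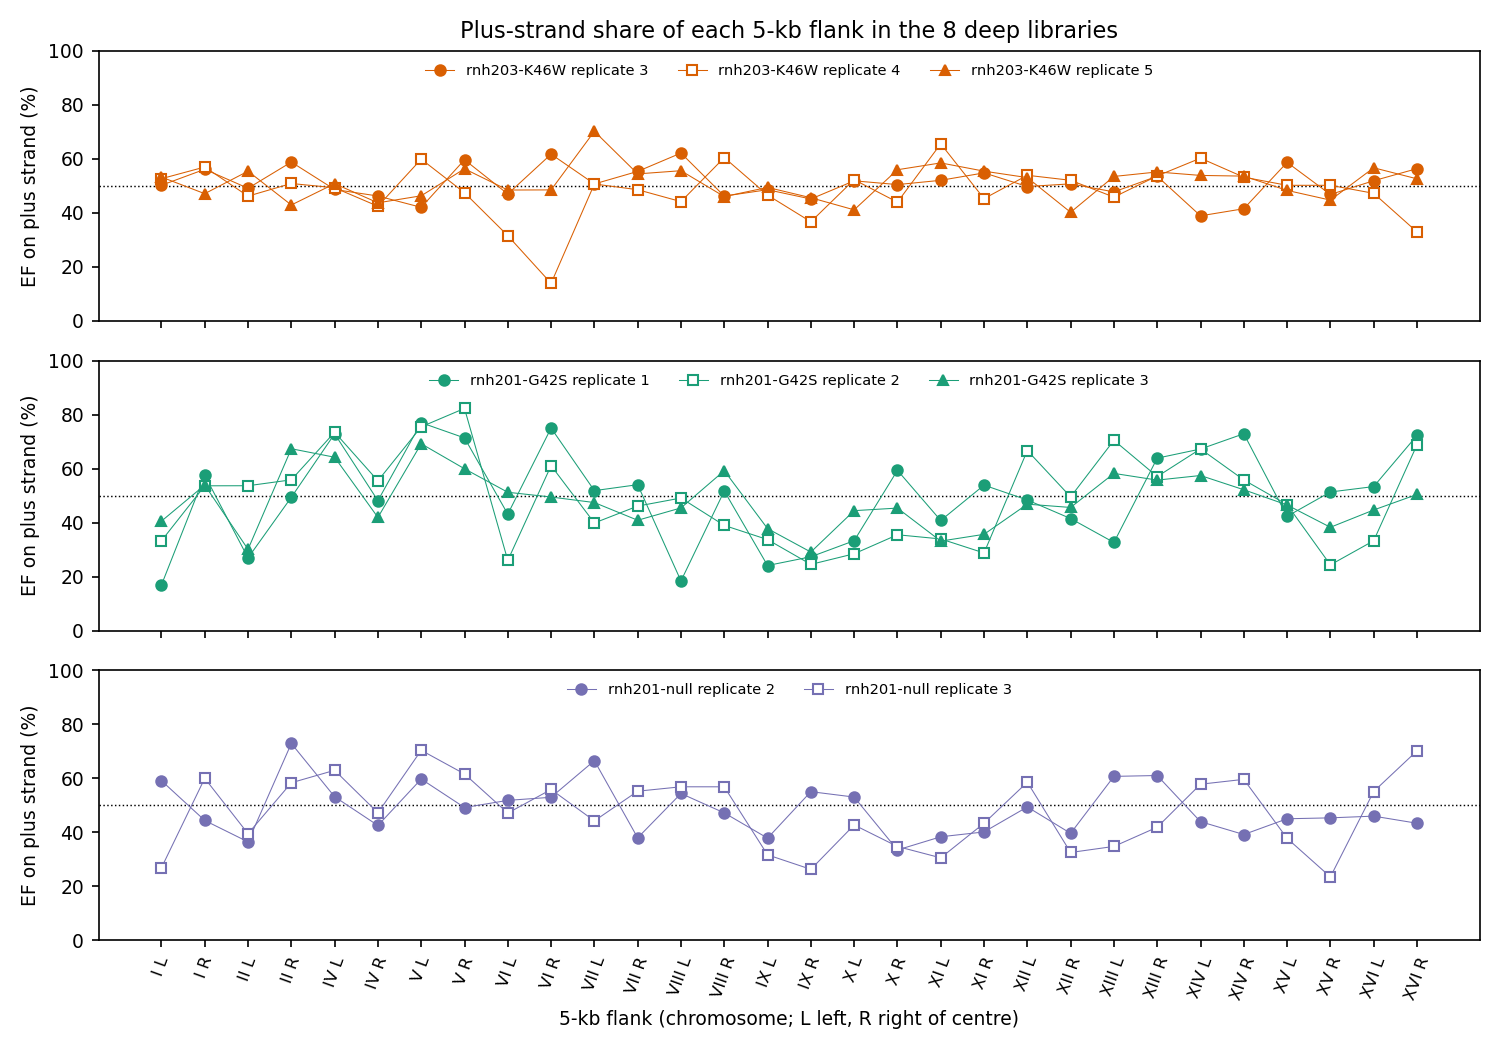
Percent of the enrichment factor on the plus strand in each 5-kb flank, left (L) or right (R) of each centre, in the 8 deep libraries; lines join the flanks of 1 library only to guide the eye. Most rnh203-K46W points stay near 50%, while the left flanks of chromosomes IV and V lie above it and those of IX and XI below it in all rnh201-G42S and rnh201-null libraries shown.

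The 15 regions were also compared between genotypes one by one, within a fit of 1176 windows of 10 kb over the nuclear genome. By limma, 0 of the 15 regions passed an adjusted p of 0.05 in any of the 6 contrasts, by level or by strand, and 0% of all windows did. By level, 3 to 114 of the 1176 windows had an unadjusted p under 0.05, and by strand 4 to 135, depending on the contrast; for the regions the most was 2 of 15. Windows with 4-fold changes were simulated at the real depths, with more falls than rises by level. By level they were recovered in 17.2% of cases for rnh201-G42S minus WT, 6.57% for rnh201-G42S minus rnh201-null and 8.59% for rnh203-K46W minus rnh201-G42S. By strand 0% were recovered. The fit could therefore miss most changes of that size.

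Regions whose libraries did not overlap between 2 genotypes were few. No region did so between WT and any mutant, where 0.17% to 1.45% of all windows did in one direction. Relative to the nuclear mean of its library, the region of chromosome XVI, centred between HAT1 and CIT3, held 1.90, 1.32 and 1.31 in rnh201-G42S and 0.72, 1.28 and 1.28 in rnh201-null. The log2 difference was 0.45 ± 0.81 (SE) in limma, with an adjusted p of 0.999. That region was the 1 of 15 that was higher without overlap in rnh201-G42S, as were 4.59% of all windows. The regions of XI and XV were lower without overlap, as were 4.51% of windows. That of XI held 0.70, 1.11 and 0.93 in rnh201-G42S and 1.66, 1.24 and 1.21 in rnh201-null, and that of XV 0.84, 0.74 and 0.87 against 1.66, 0.96 and 1.11. Between rnh203-K46W and rnh201-G42S the region of chromosome XII was lower without overlap, with 0.53, 1.05, 0.99, 0.89 and 0.91 against 1.66, 1.41 and 1.14, as were 6.04% of windows. Between rnh203-K46W and rnh201-null no region was without overlap, as 2.98% of windows were when higher and 3.66% when lower. As a ratio to the rest of its own chromosome, the region of XII did overlap, with up to 0.96 in rnh203-K46W and from 0.95 in rnh201-G42S. On that measure the region of IV was lower without overlap in rnh201-G42S, with 0.70, 0.57 and 0.95, than in rnh201-null, with 0.98, 1.12 and 1.16. The values of rnh201-null replicate 1, given first, rest on 1 read in IV, 2 in XI, 2 in XV and 1 in XVI. None of the 4 regions without overlap relative to the nuclear mean passed limma's test (adjusted p of 0.999 or more).

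Within the genotypes, the regions with the highest and lowest mean log2 ratio to the rest of their chromosome differed. In WT the highest was that of chromosome VI (mean 0.64 ± 1.14, SD, n = 6) and the lowest that of VII (-1.63 ± 1.62), where replicates 1 and 2 had no value. In rnh203-K46W they were VI (0.88 ± 1.15, n = 5) and II (-0.35 ± 0.89), in which replicate 2 held 1 read and a ratio of 0.19 and the others ratios of 0.91 to 1.26. In rnh201-G42S they were XVI (0.60 ± 0.31, n = 3) and V (-0.43 ± 0.36), and in rnh201-null XI (0.39 ± 0.18, n = 3) and V (-1.23 ± 1.94), where replicate 1 had 0 reads and its value rests on the pseudocount. In the deep rnh201-null libraries V held 1.07 and 0.79, and the region of VI was lower in both, with 0.79 and 0.69. The region of XVI was above the rest of its chromosome in all 8 deep libraries, with ratios of 1.28, 1.27 and 1.08 in rnh203-K46W, 2.05, 1.38 and 1.37 in rnh201-G42S and 1.30 and 1.31 in rnh201-null. Among all 1192 windows of 10 kb, 9 of the 15 regions were above the median window in WT, 4 in rnh203-K46W, 3 in rnh201-G42S and 10 in rnh201-null. These ranks use unweighted means over libraries, so libraries of 749 reads in WT and 1437 in rnh201-null count as much as deeper ones. In rnh201-null the lowest regions were II, V and X, in which replicate 1 had 0 reads.

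**Figure D5:**
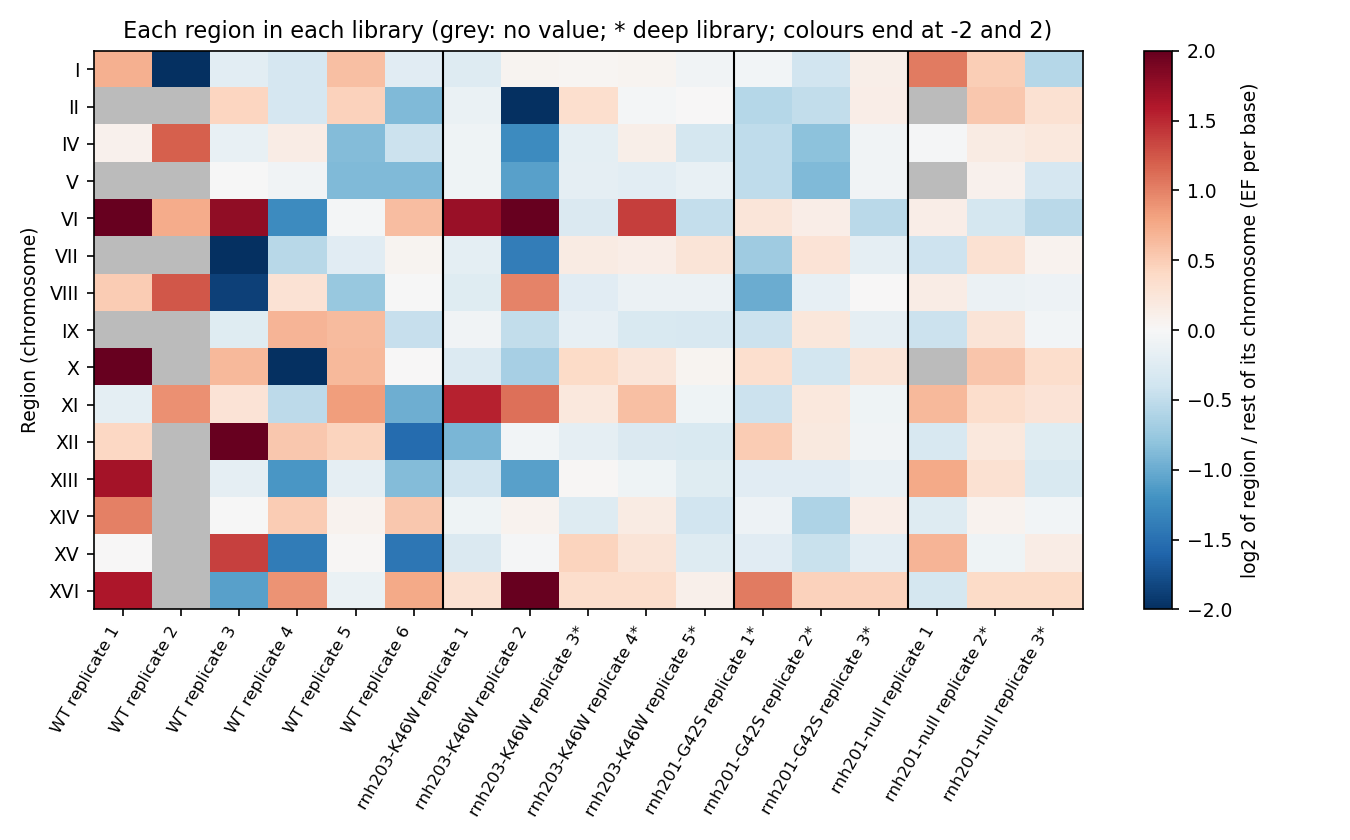
The log2 ratio of each region to the rest of its chromosome (enrichment factor per base) in each library, red above and blue below 0, with colours ending at -2 and 2; grey cells hold no value and asterisks mark deep libraries. The row of chromosome XVI is red in all 8 deep libraries, and the strongest colours lie in shallow libraries and in the row of chromosome VI.

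A single position held much of the reads of the high region of chromosome VI in 3 rnh203-K46W libraries. Position 150827, minus strand, 2227 bp right of the centre on the LOC1 side, held 94, 19, 0, 1515 and 0 reads in the 5 libraries, which was 36.0%, 73.1% and 44.7% of the region's reads in replicates 1, 2 and 4. The region's ratio was 3.31, 4.72 and 2.61 in those 3 libraries and 0.82 and 0.72 in replicates 3 and 5. Without that position, left out after its reads had been seen, the 3 ratios were 2.07, 1.15 and 1.42 and thus stayed above 1 and above those of replicates 3 and 5. The position had a value in 6 of the 10 libraries of set A and in 0 of the 7 of set B. It held 1 read in WT replicate 1, 45 in rnh201-G42S replicate 3 and 4 in rnh201-null replicate 2.

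By median over the rnh203-K46W libraries, the next 2 positions were both on chromosome XI; in all, 1392 positions had a value in at least 2 of these libraries. Position 438142, plus strand, left of the centre on the MET14 side, held 27, 7, 1, 372 and 16 reads in the 5 libraries and was the only position of 23074 in the regions with a value in all of them. It was found in 6 of the 10 libraries of set A and in 3 of the 7 of set B. The third was position 440226 at the centre, found in 5 and 3 of them.

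The positions of the other genotypes were lower. In rnh201-G42S the 3 with the highest median were position 148964 of chromosome XII, plus strand, with 10, 29 and 0 reads, position 331286 of XV, minus strand, with 7, 14 and 5, and position 551640 of XVI, minus strand, with 7, 14 and 2. In rnh201-null they were position 553677 of XVI, plus strand, with 1, 13 and 0 reads, position 493703 of VII, minus strand, with 0, 9 and 8, and position 264011 of XIII, minus strand, with 0, 9 and 66. In WT no position had a value in more than 2 libraries among the 3 named (150549 of chromosome I and 358721 and 358717 of IX, all on the minus strand), and each value was 1 or 2 reads. Values shared by all libraries of a genotype were found at 537 of 45547 positions in rnh201-G42S, 1 of 36164 in rnh201-null and 0 of 787 in WT. The shallowest library of these genotypes held 975728, 1437 and 749 nuclear reads.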

How the data were processed

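Ribose-seq reads were aligned to sacCer2 with Ribose-Map and filtered for artifacts by the authors, per the series' design text, and cutadapt is named in the submitters' processing notes. The deposited table gives an enrichment factor, a ratio without a stated formula, per position, strand and library (17 columns). From the values it equals a library constant times reads over the depth of the genotype's DNA sample, so reads were recovered as whole multiples (98.3% to 100% of values gave a whole depth within 0.01). Rows were merged by chromosome, end and strand; no library had a value given more than once at a position.

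Per library, 3 measures were computed with a pseudocount of 0.1, and tested by exact permutation between genotypes and by 100000 sign flips against 0. Windows of 10 kb, tiled outward from the regions, were tested with limma 3.58.1 (R 4.3.3) on log2(value + 0.1), so fold changes of low windows are understated. Python 3.11.15 with numpy 2.4.6, pandas 2.3.3 and scipy 1.17.1 was used. Scripts were tested on simulated data. A simulation in which every changed window rose gave false calls, because each library is rescaled to a mean of 1. By level, the quoted one lowered more windows than it raised, so that the total signal was kept. It gave 0 false calls at the real depths. At equal depths it gave 5 to 11 by level and 3 to 16 by strand, depending on the contrast. The members, measures and lists were chosen with earlier results of these data known. Regions were named as the highest and lowest of each genotype and those without overlap, and positions as the 3 with the highest median per genotype among those in at least 2 libraries. No sequence is shown, since no sacCer2 genome was used here, and the 4 DNA sequencing samples were not analysed here.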

Additional observations from a re-analysis of the deposited data

Results flagged for a closer look

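Libraries were compared with the others of their genotype in 20 sets of 5 or 6 values, and 3 stood apart by their gap to the nearest library. Some sets were of regions named as highest or lowest from these same data, and the libraries differed widely in depth. The number that chance would give is therefore not known. All were in rnh203-K46W and none in a deep library. In the central 251 bp, replicate 1 had a ratio of 5.97, where the next library had 2.27; without the position at 440226 on chromosome XI its ratio was 1.15, and without the whole of that chromosome 0.73. For the region of chromosome V, replicate 2 had the lowest ratio, 0.47, where the next had 0.86. For the region of chromosome XVI, replicate 2 had 5.91, where the next had 1.28, and this library held 7248 nuclear reads in all.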

How the results depend on the processing

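Of 529 alternative values of the 21 comparisons per library, 462 kept their direction and their side of the threshold, 65 changed sign and 2 passed it; none of the 21 passed it in the values of the report. Against 0, the log2 inner to outer ratio was -0.65 when the median over regions was used (adjusted permutation p of 0.00183), and rnh203-K46W minus WT by plus-strand share was -9.40 points within 10 kb (adjusted exact permutation p of 0.039). In the first value, a region with 0 reads in the inner stretch and some in the longer outer one counts as below 0. WT replicates 1 and 2 and rnh201-null replicate 1 held 22, 5 and 17 reads over the 15 regions. That p therefore cannot tell a deficit from low depth, and the part of depth was not tested.

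Sign changes of log2 enrichment were these. For all libraries against 0 it was -0.0155 within 2.5 kb, -0.014 with capped values, -0.26 by the median over regions, -0.20 in library series 100 (by the first digit of the library number in the titles), -0.25 in set B and down to -0.0527 with a region left out. For rnh201-null minus WT it was -0.0455 within 2.5 kb, -0.0398 without chromosome ends and ribosomal DNA, -0.0195 with each position once, -0.25 in set A and down to -0.00988 with a region left out. For rnh201-G42S minus WT it was -0.11 within 2.5 kb, -0.14 without chromosome ends and ribosomal DNA, -0.0294 with recovered reads, -0.0600 with each position once, -0.0229 with a pseudocount of 1, -0.13 without shallow libraries, -0.16 in series 200, -0.34 in set A and down to -0.0878 with a region left out. For rnh203-K46W minus WT it was -0.0786 with each position once and -0.0243 in set A, for rnh203-K46W minus rnh201-null -0.073 within 10 kb, -0.0591 with each position once, -0.0207 by the median and -0.0367 in set B, and for rnh203-K46W minus rnh201-G42S -0.0187 with each position once.

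Those of the plus-strand share, in points, were these. Against 0 it was 0.59 within 2.5 kb, 0.89 within 10 kb and 2.61 in series 200. For rnh201-G42S minus WT it was 0.74 with each position once and up to 0.65 with a region left out, and for rnh203-K46W minus WT 1.39 with each position once and 2.65 in set B. For rnh203-K46W minus rnh201-null it was 1.47 within 10 kb, 4.23 with each position once, 1.96 with capped values, 9.17 by the median, 5.53 in set B and up to 3.40 with a region left out. For rnh203-K46W minus rnh201-G42S it was 0.65 with each position once, 5.01 by the median and 4.69 in set B. The log2 inner to outer ratio of rnh203-K46W minus rnh201-G42S was -0.27 by the median and -0.0177 with a region left out, and that of rnh203-K46W minus WT was 1.2, 0.32 and 0.21 at inner distances of 125, 250 and 500 bp, 1.34 at 125 bp with recovered reads and 0.77 with each position once; these 5 settings were added after the data were seen.

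With each library left out in turn, log2 enrichment ranged from -0.0399 to 0.10 against 0, from -0.15 to 0.30 for rnh201-null minus WT, from -0.26 to 0.20 for rnh201-G42S minus WT and from -0.0359 to 0.42 for rnh203-K46W minus WT, and the plus-strand share of rnh203-K46W minus rnh201-null from -3.32 to 2.89. The called windows of rnh203-K46W minus WT ranged from 0 to 1 by level and by strand, and the 1 was found without rnh203-K46W replicate 3 and without WT replicate 6. With library weights, whose estimation stopped before it converged, the windows called by level were 1 for rnh201-G42S minus WT, 26 for rnh203-K46W minus WT and 10 for rnh203-K46W minus rnh201-null, and by strand 1 for rnh203-K46W minus WT and 56 for rnh203-K46W minus rnh201-G42S, with 0 of the regions among them. With library series as a covariate 224 windows were called for rnh201-null minus WT, 2 of them regions, and without shallow libraries 5 for rnh203-K46W minus WT, 0 of them regions. The cause was not tested. WT and rnh201-null replicate 1 hold too few reads for values at single centromeres. No paired analysis was possible because the replicate numbers were given in accession order and pair no libraries.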
